A study of Mus musculus with 22 samples.

Results

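Respiratory complex I (NADH:ubiquinone oxidoreductase) is examined here through the transcripts of its nuclear-encoded subunits in mouse kidney cortex. Members were all genes of the expression table whose symbol begins with Ndufa, Ndufb, Ndufc, Ndufs or Ndufv followed by a number, which left out the Ndufaf assembly factors. This rule found 36 genes among the 16556 of the table, and all 36 passed the filter on low counts that kept 15064 genes for testing. Of the 36, 7 encode catalytic core subunits, 9 encode accessory subunits of the matrix arm, 8 accessory subunits of the proximal membrane arm and 10 accessory subunits of the distal membrane arm. The remaining 2 match by name only: Ndufa4 is now assigned to complex IV, and Ndufa4l2 is its paralog, known as a target of hypoxia-inducible factors.

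Polyadenylated RNA of kidney cortex was sequenced at its 3' ends in 22 libraries from male C57BL/6J mice, each with a number of its own in its title. The study deleted Crat, which encodes carnitine acetyltransferase, a mitochondrial enzyme that transfers acetyl groups from coenzyme A to carnitine, in proximal tubular cells with Cre recombinase under the Ggt promoter. Pt-CrAT mice carry this deletion and fl/fl mice carry the floxed allele; the labels list a Cre promoter, Ggt, for Pt-CrAT libraries only. There were 3 Pt-CrAT and 3 fl/fl libraries at 12 months with "LFD" in the title, a word the labels do not spell out, 3 and 3 at 15 months on chow, and 5 and 5 at 24 months on chow. Diet and age change together at 12 months, so those libraries were compared by genotype only. Whole cortex was used, so the RNA also comes from cells outside the proximal tubule, and fewer cells of a type cannot be told apart from less RNA per cell. The p-values rest on the spread between libraries within groups, pooled per gene over all 6 groups. At each age they therefore draw on the spread at the other ages too. Nothing in the labels describes litters or batches.

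Complex I takes electrons from NADH, passes them along iron-sulfur clusters in its matrix arm to ubiquinone, and uses the energy to pump protons through its membrane arm. The catalytic core of the matrix arm is encoded in the nucleus, the pumping core of the membrane arm in mitochondrial DNA, and many accessory subunits hold the structure together. The proximal tubule reabsorbs most of the filtered solute with ATP made almost entirely by oxidative phosphorylation, so its cells are packed with mitochondria.

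Promoter sequences were examined because members differed in direction. RefSeq windows (GRCm38.p6, 250 bases before to 50 after the transcription start) were found for 31 of the 36 members, as 33 windows. Ndufa2, Ndufa4l2, Ndufb9 and Ndufs1 were among those not matched. The windows of the pair with the largest rise at 12 months, Ndufb7 and Ndufs8, and of the 2 with the smallest p among those that fell, Ndufc2 and Ndufv2, are shown 5' to 3' in the direction of transcription, with motif matches on either strand in capitals.
Ndufb7, chr8:83566508-83566807, plus strand: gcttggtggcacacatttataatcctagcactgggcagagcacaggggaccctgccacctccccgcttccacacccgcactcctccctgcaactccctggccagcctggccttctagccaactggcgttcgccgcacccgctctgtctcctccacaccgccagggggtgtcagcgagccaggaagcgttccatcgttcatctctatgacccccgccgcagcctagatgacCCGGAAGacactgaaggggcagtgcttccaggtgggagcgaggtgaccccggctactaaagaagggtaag
Ndufs8, chr19:3912725-3913024, minus strand: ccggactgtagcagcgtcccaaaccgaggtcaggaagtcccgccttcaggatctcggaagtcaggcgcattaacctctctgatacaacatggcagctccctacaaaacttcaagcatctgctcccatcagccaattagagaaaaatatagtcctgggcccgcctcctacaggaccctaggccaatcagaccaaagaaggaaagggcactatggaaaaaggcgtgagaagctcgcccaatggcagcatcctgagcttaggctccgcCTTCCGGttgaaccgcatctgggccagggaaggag
Ndufc2, chr7:97399753-97400052, plus strand: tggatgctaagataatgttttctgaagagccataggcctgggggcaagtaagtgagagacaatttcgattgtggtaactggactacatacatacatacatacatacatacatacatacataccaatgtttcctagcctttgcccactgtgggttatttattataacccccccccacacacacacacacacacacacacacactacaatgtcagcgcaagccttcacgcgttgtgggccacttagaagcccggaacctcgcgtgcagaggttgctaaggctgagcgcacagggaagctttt
Ndufv2, chr17:66101510-66101809, minus strand: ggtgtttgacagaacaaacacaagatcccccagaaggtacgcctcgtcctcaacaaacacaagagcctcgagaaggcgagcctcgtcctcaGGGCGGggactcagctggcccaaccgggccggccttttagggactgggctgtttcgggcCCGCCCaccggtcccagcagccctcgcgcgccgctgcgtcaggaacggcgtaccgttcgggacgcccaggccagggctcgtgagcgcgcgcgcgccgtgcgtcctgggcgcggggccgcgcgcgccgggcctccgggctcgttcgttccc

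In these windows the capitals mark CCGGAAG, the core of the ETS family site bound by GABP, in Ndufb7 and Ndufs8, and GGGCGG, the SP family box, at 2 places in Ndufv2. No matches overlapped in the windows shown, and the Ndufc2 window held none of the motifs searched. The motifs were GCGCANGCG (NRF-1), CCGGAAG (ETS family), AAGATGGCG (YY1), TCAAGGTCA (estrogen-related receptors) and GGGCGG (SP family), read on both strands, and a match describes letters only. The NRF-1 motif stood in 8 of the 33 member windows (24.2%), belonging to Ndufa5, Ndufa6, Ndufa8, Ndufb4, Ndufb10, Ndufs5 and Ndufs6, and in 6.25% of all 32851 RefSeq windows of that length. This spelling of the NRF-1 motif was settled after counts had been seen, and it was 1 of 3 spellings counted. A stricter one, with a C added at the end, stood in 7 member windows (21.2%, against 4.6% of all), and one with T in place of N stood in 1 (3.03%, against 1.75% of all). The share of members with this motif therefore depends on the spelling. The YY1 motif stood in 5 member windows (15.2%), those of Ndufa9, Ndufc1, Ndufs4, Ndufs6 and Ndufs7, and in 1.4% of all windows. The ETS motif stood in 4 (12.1%, against 8.86% of all), those of Ndufb6, Ndufb7, Ndufs3 and Ndufs8. Of these 4 genes, Ndufb7 and Ndufs8 rose and Ndufb6 fell at 12 months. Among genes with the NRF-1 motif Ndufb10 and Ndufs6 rose, and among those with the YY1 motif Ndufa9 and Ndufs6 rose. The other genes with either of these motifs did not pass at that age. The SP box stood in 15 (45.5%, against 35.7% of all), and the estrogen-related receptor motif in 0 member windows and 0.423% of all. Among genes with the SP box, Ndufa13 rose and Ndufb6 and Ndufv2 fell at 12 months, and the others did not pass. A relation of motif to direction was not tested. The median GC content was 59% in member windows and 52.7% in all windows.

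Library names follow the sample titles, in which fl/fl is written Wt and Pt-CrAT is written CrAT. Library totals were 12175804 to 17447367 counts, and 53157575 in CrAT12MLFD345. Levels below are TMM-scaled CPM, counts scaled to a common library size, and since each molecule is read near its 3' end they are not divided by transcript length. The targeted gene did not follow its labels everywhere. Crat averaged 62.5 ± 19.4 CPM in Pt-CrAT and 78.9 ± 22.5 CPM in fl/fl at 12 months (SD, n = 3 each), and 36.2 ± 4.41 CPM in Pt-CrAT and 74.7 ± 24.4 CPM in fl/fl at 24 months (SD, n = 5 each). Its difference was not called at 12 months (log2 fold change -0.33, adjusted p = 0.410), where the groups overlapped, with 81.1 CPM in CrAT12MLFD337 and 54.0 CPM in Wt12MLFD326. At 24 months the groups did not overlap, and the difference was not called either (-1.04, adjusted p = 0.177). At 15 months it averaged 69.1 ± 5.27 CPM in libraries labelled Pt-CrAT and 45.3 ± 13.3 CPM in libraries labelled fl/fl (SD, n = 3 each), the opposite of the deletion, so every 15-month value below, also where ages are compared, belongs to libraries labelled with that genotype. Which exons were deleted, and whether the 3' tags lie outside them, is not given in the labels.

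Over the 36 members together, summed expression was 17727 ± 1972 CPM in Pt-CrAT and 14113 ± 2243 CPM in fl/fl at 12 months. The 12-month fl/fl sums were 11526 CPM in Wt12MLFD326, 15283 CPM in Wt12MLFD327 and 15529 CPM in Wt12MLFD368. The lowest 12-month Pt-CrAT sum, in CrAT12MLFD345, was 15566 CPM. At 15 months summed expression was 13221 ± 680 CPM in libraries labelled Pt-CrAT and 13729 ± 1216 CPM in those labelled fl/fl (SD, n = 3 each, at both ages). At 24 months it was 11553 ± 824 CPM in Pt-CrAT and 13200 ± 772 CPM in fl/fl (SD, n = 5 each). Every Pt-CrAT factor at 24 months lay above every factor at 15 months and every fl/fl factor at 24 months. This lowers the 24-month Pt-CrAT sum relative to those groups. The lowest factors were those of CrAT12MLFD328 and CrAT12MLFD337, which raises their sums. The part of the scaling in the differences between sums was not tested. The most abundant members were Ndufb8, Ndufa2, Ndufa5 and Ndufb9, with means over all libraries of 2143, 1443, 1156 and 1132 CPM. Ndufa4l2 (2.14 CPM) and Ndufs5 (0.932 CPM) were close to the detection limit, so their fold changes carry wide errors.

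Some complex I transcripts rose and others fell at 12 months. In Pt-CrAT kidneys 8 members rose and 4 fell by edgeR's quasi-likelihood test at a Benjamini-Hochberg adjusted p of 0.05. The 8 that rose were Ndufb7, Ndufs8, Ndufa2, Ndufs6, Ndufb9, Ndufa13, Ndufa9 and Ndufb10, with log2 fold changes of 0.38 to 0.86. The 4 that fell were Ndufc2, Ndufb6, Ndufv2 and Ndufs1, with log2 fold changes of -0.68 to -0.41. The risen members were 22.2% of the 36, against 8.41% of all genes tested, and the fallen members 11.1%, against 7.95% of all genes tested. Regardless of the test, 22 members had a higher value in Pt-CrAT (50.1% of all genes did) and 14 a lower value (49.9% of all genes), and the median log2 fold change was 0.20 over members and 0.00 over all genes. The member median was 0.11 without Wt12MLFD326, 0.12 with a GC correction of the counts described below and 0.08 without CrAT12MLFD328 and Wt12MLFD326 together. Unadjusted p-values under 0.05 were found for 20 members, 55.6%, against 33.7% of all genes. The libraries of the groups did not overlap for 10 members that were higher in Pt-CrAT (16.3% of all genes did so) and for 8 that were lower (13.8% of all genes).

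These calls rested on single libraries, as did those of the whole table, in which 1267 genes rose and 1197 fell. Without CrAT12MLFD328 no member passed in either direction, with 53 genes of the table, and in a fit of the 6 libraries of this age alone no member and 1 gene passed. Without CrAT12MLFD337, 2 members rose and 0 fell (391 genes), and without Wt12MLFD326, 2 rose and 1 fell (408 genes). Ndufb7 and Ndufs8 kept their calls in both of these, and Ndufv2 kept its call without Wt12MLFD326. Without CrAT12MLFD345, 12 members rose and 7 fell (3513 genes).

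**Figure D1:**
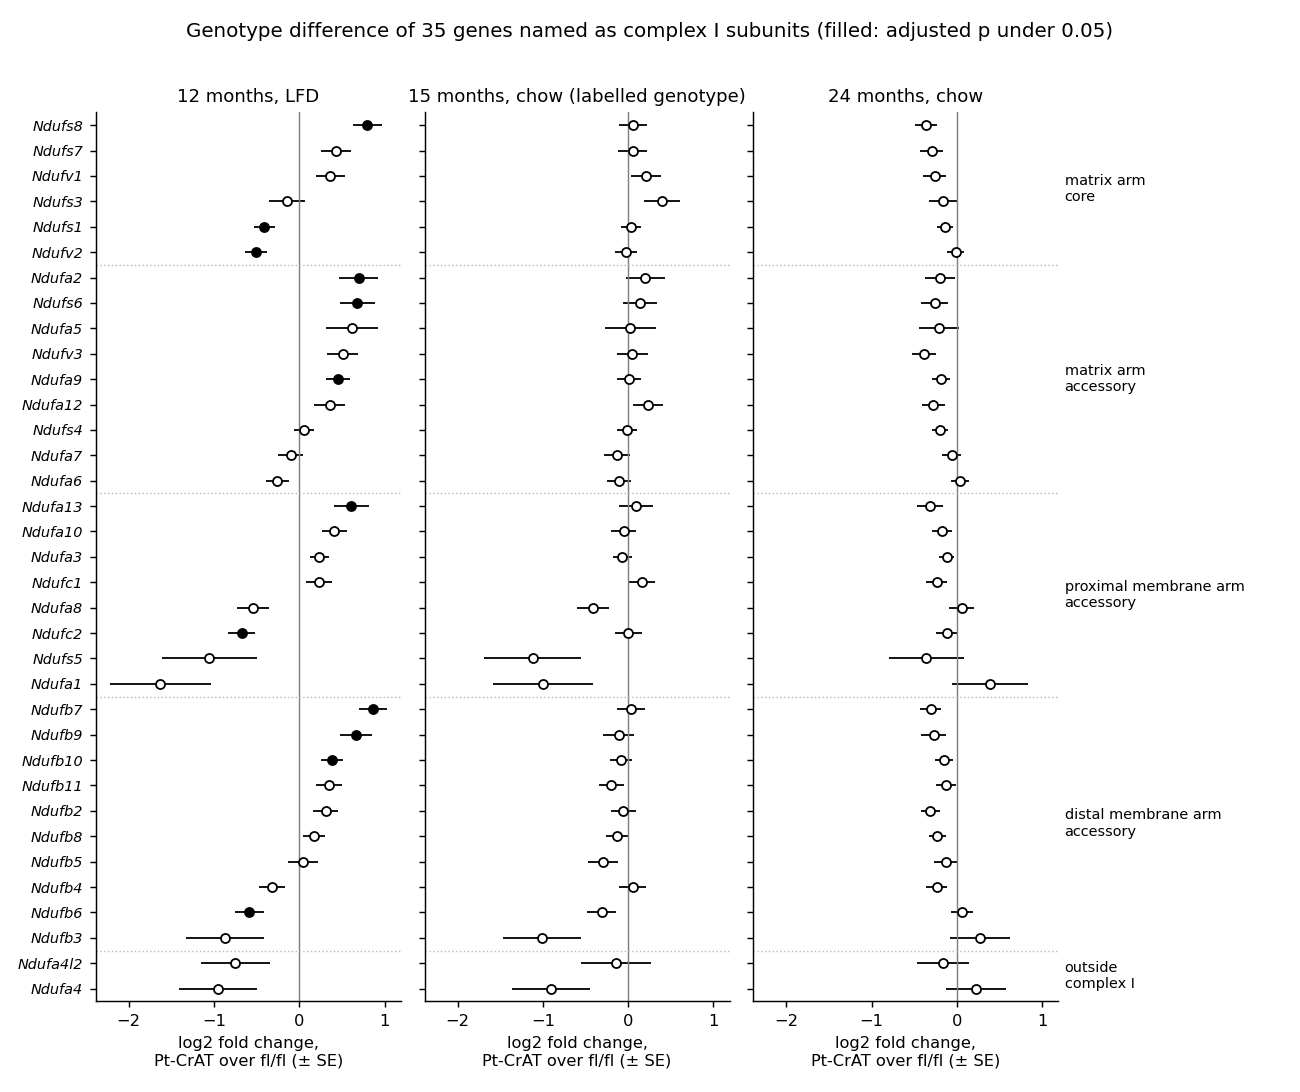
Log2 fold change (Pt-CrAT over fl/fl, points, with bars of 1 SE from the edgeR fit) of 35 of the 36 members at 12, 15 and 24 months, ordered by structural role and, within a role, by the 12-month value; filled points passed an adjusted p of 0.05. At 12 months the filled points lie on both sides of 0 (0.86 for Ndufb7, -0.68 for Ndufc2), none is filled at 15 or 24 months, and at 24 months most lie below 0.

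Among the 7 core subunits of the matrix arm, 1 rose and 2 fell at 12 months. Ndufs8, which carries iron-sulfur clusters on the path to ubiquinone, had 303, 272 and 198 CPM in Pt-CrAT (CrAT12MLFD328, CrAT12MLFD337 and CrAT12MLFD345) and 165.2, 156 and 122.8 CPM in fl/fl (Wt12MLFD326, Wt12MLFD327 and Wt12MLFD368). Every Pt-CrAT library lay above every fl/fl library, with a log2 fold change of 0.80 (SE 0.17, adjusted p = 0.0076). Ndufv2, which holds an iron-sulfur cluster next to the NADH site, had 134, 160 and 163.85 CPM in Pt-CrAT and 203.55, 230.5 and 217 CPM in fl/fl, in the same order of libraries. Here every Pt-CrAT library lay below every fl/fl library (log2 fold change -0.51, SE 0.13, adjusted p = 0.015). Ndufs1, the largest core subunit and the one with most iron-sulfur clusters, averaged 151 ± 7.54 CPM in Pt-CrAT and 200.1 ± 13.1 CPM in fl/fl (SD, n = 3 each). Its highest Pt-CrAT library (159 CPM) lay below its lowest fl/fl library (189 CPM), with a log2 fold change of -0.41 (SE 0.12, adjusted p = 0.029).

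The remaining core subunits did not pass at 12 months. Ndufv1, which binds NADH and the flavin, had 574, 579 and 472 CPM in Pt-CrAT and 299, 456 and 509 CPM in fl/fl (log2 fold change 0.36, adjusted p = 0.141). Ndufs7, which carries the last iron-sulfur cluster before ubiquinone, had 341, 332 and 249 CPM in Pt-CrAT and 163, 260 and 261 CPM in fl/fl (0.43, adjusted p = 0.082). In both genes the groups overlapped and Wt12MLFD326 was the lowest library. Ndufs3, a core subunit without a cofactor, had 63.6, 67.8 and 58.3 CPM in Pt-CrAT and 45.2, 67.1 and 96.8 CPM in fl/fl (-0.14, adjusted p = 0.671). The fl/fl libraries of Ndufs3 lay on both sides of the Pt-CrAT libraries.

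Of the 9 accessory subunits of the matrix arm, 3 rose and 0 fell. Ndufa2, which has a thioredoxin-like fold, had 2722, 2462 and 1820 CPM in Pt-CrAT and 831, 1489 and 1999.5 CPM in fl/fl (log2 fold change 0.70, SE 0.23, adjusted p = 0.042). A single fl/fl library, Wt12MLFD368, reached into the Pt-CrAT range. Ndufs6, a zinc-binding subunit needed late in assembly, had 979.6, 873 and 679.6 CPM in Pt-CrAT and 370.5, 557 and 651 CPM in fl/fl (0.68, SE 0.20, adjusted p = 0.028). Its groups did not overlap, and Wt12MLFD326 was again lowest. Ndufa9, which lies at the junction of the arms, averaged 287 ± 42.3 CPM in Pt-CrAT and 209 ± 27.6 CPM in fl/fl (SD, n = 3 each; 0.45, adjusted p = 0.031). The other 6 members of this class had log2 fold changes from -0.26 (Ndufa6) to 0.62 (Ndufa5) and did not pass.

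In the proximal membrane arm 1 of 8 accessory subunits rose and 1 fell. Ndufc2, a membrane-spanning accessory subunit, had 97.2, 107 and 128 CPM in Pt-CrAT and 218, 156 and 156 CPM in fl/fl (log2 fold change -0.68, SE 0.16, adjusted p = 0.012). Ndufa13, also known as GRIM-19, averaged 1197 ± 216 CPM in Pt-CrAT and 783 ± 244 CPM in fl/fl (SD, n = 3 each; 0.61, SE 0.20, adjusted p = 0.041). For both genes every Pt-CrAT library lay on one side of every fl/fl library. The remaining 6 of 8 did not pass, among them Ndufa1, with the lowest value of all members (-1.63, SE 0.59, adjusted p = 0.064), and Ndufa8, a subunit on the intermembrane side (-0.54, SE 0.19, adjusted p = 0.052).

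In the distal membrane arm 3 of 10 accessory subunits rose and 1 fell. Ndufb7, a subunit on the intermembrane face, had 474, 404 and 329 CPM in Pt-CrAT and 196, 259 and 209 CPM in fl/fl (log2 fold change 0.86, SE 0.16, adjusted p = 0.0057). Ndufb9, a LYR-motif protein on the matrix side of the arm, had 1892, 1647 and 1312 CPM in Pt-CrAT and 711, 1228 and 1119 CPM in fl/fl (0.67, SE 0.19, adjusted p = 0.023). In both, all Pt-CrAT libraries stood above all fl/fl libraries. Ndufb10 averaged 561 ± 29.5 CPM in Pt-CrAT and 430.2 ± 66.2 CPM in fl/fl (SD, n = 3 each; 0.38, adjusted p = 0.047). Ndufb6, a small membrane-spanning subunit, moved the other way, with 93.5, 98.0 and 114 CPM in Pt-CrAT and 169, 147 and 143 CPM in fl/fl (-0.59, SE 0.17, adjusted p = 0.026). The most abundant member, Ndufb8, was at 2277 ± 111 CPM in Pt-CrAT and 2014 ± 168.4 CPM in fl/fl (SD, n = 3 each) and did not pass (0.18, adjusted p = 0.348).

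**Figure D2:**
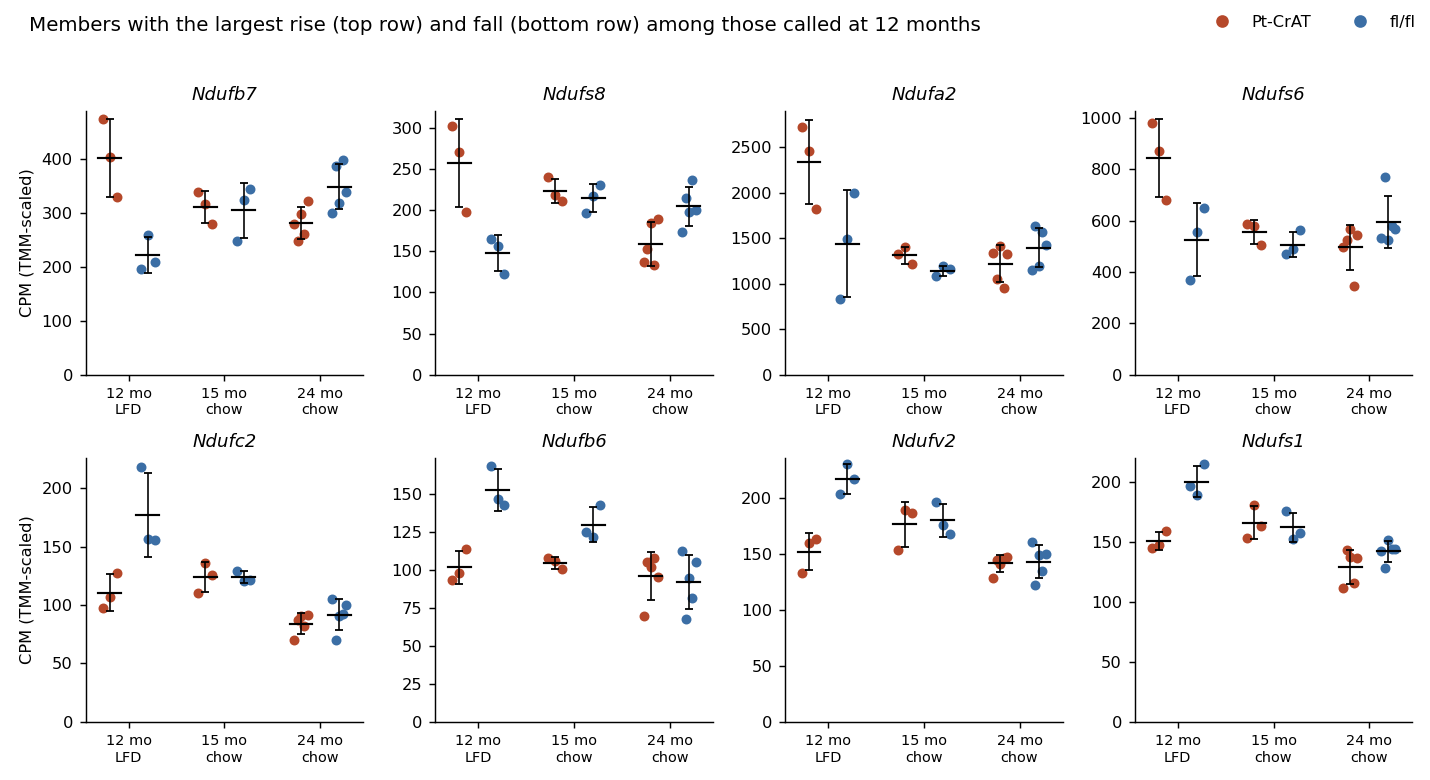
TMM-scaled CPM per library (points) with group mean and SD (bars) by age for Pt-CrAT and fl/fl, for the 4 members with the largest rise and the 4 with the largest fall among those called at 12 months. At 12 months Ndufb7 averages 402 CPM in Pt-CrAT and 221 CPM in fl/fl and Ndufc2 111 CPM in Pt-CrAT and 177 CPM in fl/fl, whereas at 15 months the group means of both genes lie within 1 SD of each other.

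Pairs of members with opposite calls stood in different proportions in the genotypes at 12 months. The log2 ratio of Ndufs8 to Ndufv2 ranged from 0.27 to 1.183 in Pt-CrAT and from -0.82 to -0.30 in fl/fl. At 15 months it ranged from 0.18 to 0.65 in libraries labelled Pt-CrAT and from 0.0022 to 0.45 in those labelled fl/fl. At 24 months it ranged from -0.15 to 0.38 in Pt-CrAT and from 0.11 to 0.81 in fl/fl, and the groups overlapped at both of these ages. The log2 ratio of Ndufb7 to Ndufc2 averaged 1.86 ± 0.46 in Pt-CrAT and 0.33 ± 0.45 in fl/fl at 12 months (SD, n = 3 each), without overlap. At 15 months it averaged 1.33 ± 0.25 in libraries labelled Pt-CrAT and 1.29 ± 0.31 in those labelled fl/fl (SD, n = 3 each). At 24 months it averaged 1.74 ± 0.19 in Pt-CrAT and 1.93 ± 0.36 in fl/fl (SD, n = 5 each). For both ratios, fl/fl at 12 months had the lowest mean of the 6 groups. These pairs were picked for their opposite calls, so the ratios are a description without a test.

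Some tissue markers differed beside these changes. Of 7 adipocyte markers tested, 6 were higher in Pt-CrAT at 12 months. Their summed level, over 8 markers, was 353, 704 and 884 CPM in Pt-CrAT and 134, 238 and 276 CPM in fl/fl. Most of the Pt-CrAT sums was Car3, with 294, 576 and 649 CPM in Pt-CrAT and 63.5, 192 and 246 CPM in fl/fl. Adipoq had 5.75, 14.1 and 28.0 CPM in Pt-CrAT and 0.32, 0.73 and 0.41 CPM in fl/fl. Fabp4 had 12.4, 20.8 and 64.4 CPM in Pt-CrAT and 66.6, 36.9 and 25.0 CPM in fl/fl. The library with the highest adipocyte marker sum was CrAT12MLFD345. Of the 3 Pt-CrAT libraries, CrAT12MLFD345 had the lowest level of each of the 8 members that rose. It also had the highest level of each of the 4 members that fell. Of 10 proximal tubule markers, 2 were called lower and 0 higher in Pt-CrAT. Regardless of the test, 7 had a higher and 3 a lower value, with a median log2 fold change of 0.20. The sum of the 10 was 16878 to 18280 CPM in Pt-CrAT and 14105 to 19359 CPM in fl/fl. The lowest of these sums was that of Wt12MLFD326. The part of these markers in the complex I differences was not tested.

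The base composition of the 3' end also went with the direction. The last 300 bases of the annotated transcript (GENCODE M21) had a median GC content of 52.2% in the 8 members that rose (39.3% to 57.7%) and 35% in the 4 that fell (32% to 36.3%), so these ranges did not overlap. It was 47.8% in the 24 members that did not pass and 43% in all genes. Across the 36 members Spearman's rho between this GC content and the 12-month log2 fold change was 0.45, and across 15035 genes it was 0.31. At 24 months the rho values were -0.59 and -0.22. The genes share their libraries and are not independent, so no p is given. With counts corrected for this GC content per library, a correction chosen after the data were seen, 6 of the 12 calls remained. These were Ndufb7, Ndufs8, Ndufb9, Ndufa2, Ndufa9 and Ndufc2. Ndufa8 and Ndufb4 were added as lower, so that 5 members rose and 3 fell, and 1994 genes of the whole table passed.

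**Figure D3:**
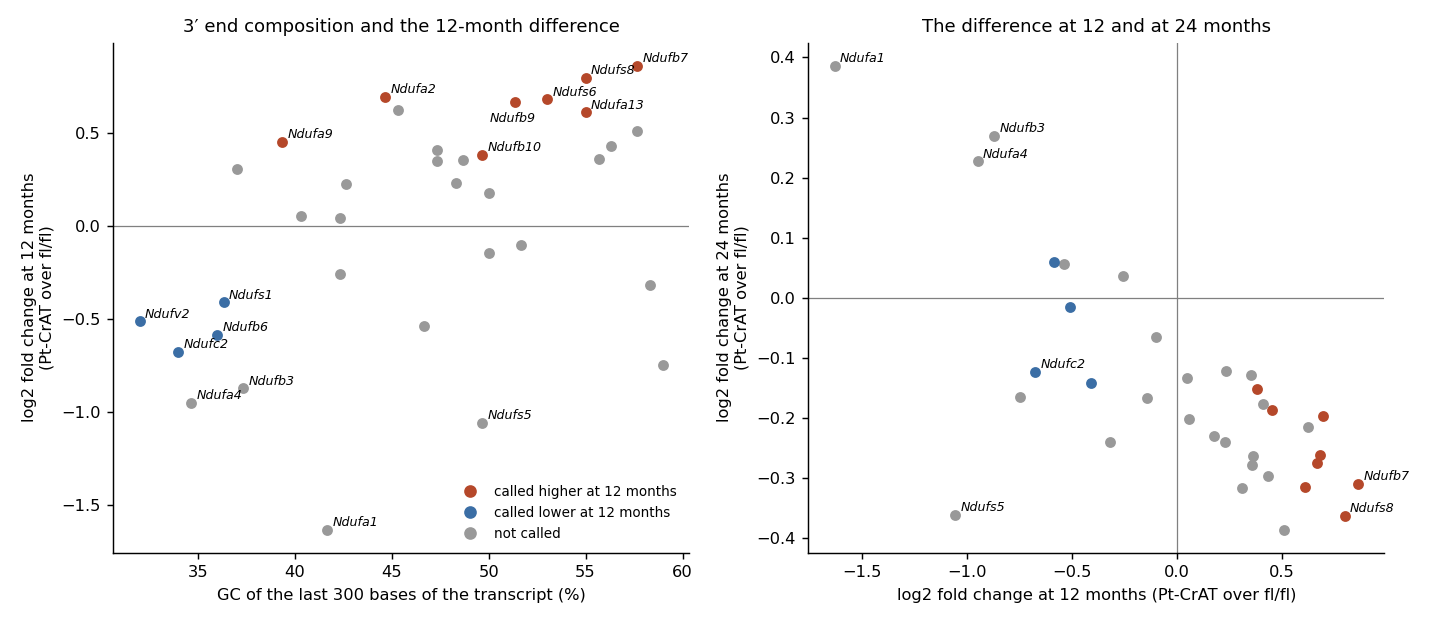
Left, GC content (%) of the last 300 transcript bases against the 12-month log2 fold change (Pt-CrAT over fl/fl) of 35 of the 36 members; right, the 12-month against the 24-month log2 fold change, with members coloured by their 12-month call. Called-higher members lie at 39.3% GC or more and called-lower members at 36.3% or less, and all 8 called-higher members lie below 0 at 24 months.

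A few members had a wide spread within groups, pooled over the 6 groups, and they were named after their values were seen. Ndufa1, a small membrane-spanning subunit encoded on the X chromosome (GRCm38 chromosome X, 37187588 to 37191163), had a within-group SD of 0.77 on the log2 scale, larger than in 99.4% of the 8133 genes with at least 10 CPM. Ndufb3 had 0.61 and Ndufa4 0.59, above 98.2% and 98% of those genes, while the median was 0.21 over members and 0.23 over all those genes. The spread differed between groups: the highest library of Ndufa1 stood 7.33-fold above the lowest in fl/fl at 24 months and 1.54-fold in libraries labelled fl/fl at 15 months. Among fl/fl libraries at 24 months, Ndufa1 had 152, 20.8, 57.5, 46.2 and 93.0 CPM in Wt24Mchow145, Wt24Mchow154, Wt24Mchow164, Wt24Mchow165 and Wt24Mchow168. Ndufb3 had 358, 67.2, 153, 142 and 276 CPM and Ndufa4 212, 47.2, 98.9, 66.2 and 129 CPM in the same order. Wt24Mchow145 was highest and Wt24Mchow154 lowest for all of them. Over the 6 groups, the library with most Ndufa1 was also that with most Ndufa4, Ndufb3, Ndufb6 and Ndufs5 in 5 each. The library with least Ndufa1 was that with least Ndufa4 in 4, and with least Ndufb3, Ndufb6 and Ndufs5 in 3 each. These genes were named because they had the most matches for the highest library among the members. Groups at 12 and 15 months hold only 3 libraries each, and the count was not made over all genes. In Ndufa1 at 12 months, the values were 35.0, 34.3 and 88.5 CPM in Pt-CrAT and 309.6, 84.9 and 99.4 CPM in fl/fl. The groups overlapped by a single library on each side, which is the spread behind its log2 fold change of -1.63 without a call.

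**Figure D4:**
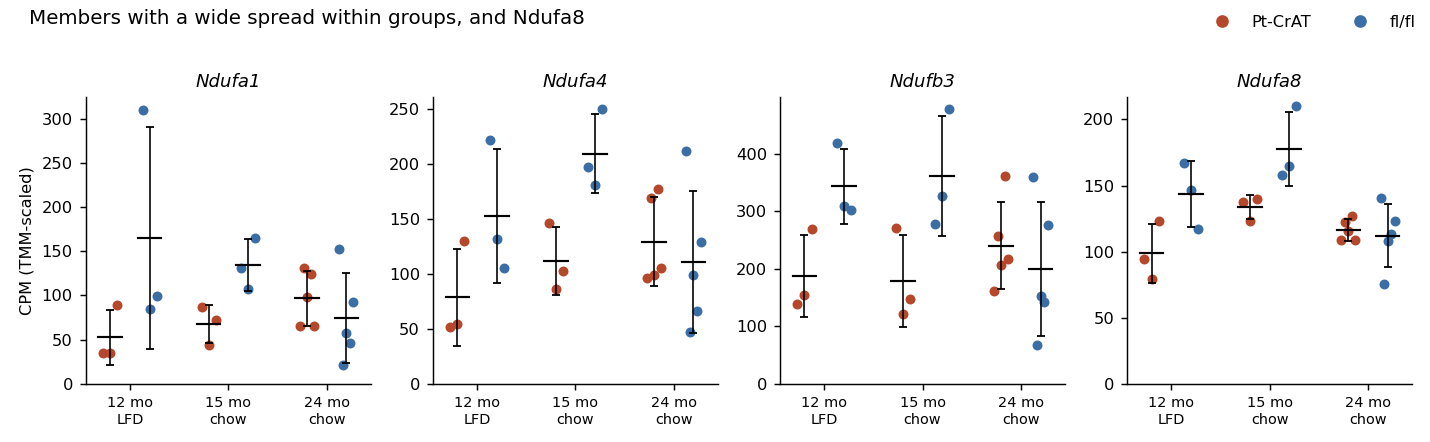
TMM-scaled CPM per library (points) with group mean and SD (bars) for Ndufa1, Ndufa4, Ndufb3 and Ndufa8 by age in Pt-CrAT and fl/fl. Ndufa1 runs from 20.8 to 152 CPM within fl/fl at 24 months, and Ndufa8 averages 117 CPM in Pt-CrAT and 112 CPM in fl/fl at that age.

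At 15 months no member passed between the labelled genotypes, and neither did any other gene (0% of 15064 in either direction). Unadjusted p-values under 0.05 were found for 2 members, 5.56%, against 8.29% of all genes, and DESeq2 and limma-voom also called 0 members. The values lay around 0, with a median of -0.02 over members and 0.01 over all genes. The members with the smallest p were Ndufa8, Ndufb3 and Ndufs5, none of which passed (adjusted p = 0.581 for each). Ndufa8 had 138, 123.1 and 139.8 CPM in libraries labelled Pt-CrAT (CrAT15Mchow183, CrAT15Mchow185 and CrAT15Mchow204) and 158, 164.5 and 209.9 CPM in libraries labelled fl/fl (Wt15Mchow205, Wt15Mchow225 and Wt15Mchow227; log2 fold change -0.41, SE 0.19). Ndufb3 had 270.1, 120.5 and 147 CPM in libraries labelled Pt-CrAT and 277, 326.75 and 477 CPM in those labelled fl/fl (-1.01, SE 0.46). Ndufs5 stayed between 0.40 and 0.75 CPM in libraries labelled Pt-CrAT and between 0.89 and 2.31 CPM in those labelled fl/fl (-1.12, SE 0.57). In all 3 genes the labelled groups did not overlap, as for 6 members with lower (12.7% of all genes) and 4 with higher values (11.6% of all genes) in libraries labelled Pt-CrAT. The 8 members that rose at 12 months had log2 fold changes between -0.11 and 0.20 here.

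At 24 months no member passed either, again with 0% of all genes called in either direction, but most values were lower in Pt-CrAT. The value was below 0 for 30 of 36 members, 83.3%, against 47.1% of all genes, and the median log2 fold change was -0.18 over members and 0.02 over all genes. All 7 core subunits, 8 of 9 accessory subunits of the matrix arm, 6 of 8 of the proximal and 8 of 10 of the distal membrane arm had lower values. Members share these 10 libraries, so the count is a description. Unadjusted p-values under 0.05 were found for 7 members, 19.4%, against 9.35% of all genes: Ndufb2, Ndufs8, Ndufv3, Ndufb7, Ndufb8, Ndufs7 and Ndufs4. DESeq2 and limma-voom called 0 members as well, and over the whole table DESeq2 called 8 genes. The groups did not overlap for 2 members, Ndufb8 and Ndufb10, both lower in Pt-CrAT (0.797% of all genes did so, and 0.737% of all genes were higher without overlap).

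The members with the smallest p at 24 months were Ndufb2, Ndufs8 and Ndufv3, each with an adjusted p of 0.461. Ndufb2, in the distal membrane arm, had 209.9, 253, 257, 276 and 279.7 CPM in Pt-CrAT (CrAT24Mchow123, CrAT24Mchow124, CrAT24Mchow135, CrAT24Mchow136 and CrAT24Mchow146) and 303, 279, 302, 370.3 and 334 CPM in fl/fl (Wt24Mchow145, Wt24Mchow154, Wt24Mchow164, Wt24Mchow165 and Wt24Mchow168; log2 fold change -0.32, SE 0.11). Ndufs8 had 137, 153, 184, 133 and 189.6 CPM in Pt-CrAT and 174, 215, 198, 237 and 201 CPM in fl/fl (-0.36, SE 0.13). Both pairs of groups overlapped only where the highest Pt-CrAT libraries met the lowest fl/fl libraries. Ndufv3, an accessory subunit beside the NADH site, had 159.5, 167.6, 226, 141 and 188 CPM in Pt-CrAT and 209, 222, 207, 255 and 259.9 CPM in fl/fl (-0.39, SE 0.14). A single Pt-CrAT library, CrAT24Mchow135, reached the fl/fl range. Summed proximal tubule markers at this age were 10196 ± 1338 CPM in Pt-CrAT and 11521 ± 546 CPM in fl/fl (SD, n = 5 each), with 0 of 10 markers called. Summed collecting duct markers were 964 ± 276 CPM in Pt-CrAT and 685 ± 160 CPM in fl/fl, with 0 of 4 called. Summed adipocyte markers were 130.3 ± 47.0 CPM in Pt-CrAT and 226.9 ± 96.5 CPM in fl/fl, where 6 of 7 tested had lower values and 0 were called. Summed erythrocyte markers were 1332 ± 512 CPM in Pt-CrAT and 1841 ± 316 CPM in fl/fl, where 5 of 5 had lower values and 0 were called (SD, n = 5 each). Their part in the lower values was not tested.

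The genotype difference of some members changed with the setting. In a test of its variation over the 3 settings (edgeR quasi-likelihood, 2 degrees of freedom), 4 members passed, 11.1%, against 5.07% of all genes. They were Ndufb7 and Ndufs8 (adjusted p = 0.02 for each), Ndufb9 (0.0455) and Ndufv3 (0.0497). All 4 had higher values in Pt-CrAT at 12 months and lower values at 24 months. The log2 fold changes at 12, 15 and 24 months were 0.86, 0.04 and -0.31 for Ndufb7 and 0.80, 0.06 and -0.36 for Ndufs8. All 8 members that rose at 12 months had lower values in Pt-CrAT at 24 months, between -0.36 and -0.15. So did 3 of the 4 members that fell at 12 months, with values from -0.14 to 0.06 over the 4, and 30 of the 36 members in all. Across the 36 members, Spearman's rho between the 12- and 24-month differences, which come from different libraries, was -0.65, and across all genes it was -0.39, so the whole table shows this opposition as well. The change of the difference between 15 and 24 months passed for no member and no gene, with unadjusted p-values under 0.05 for 4 members and 15% of all genes, and 0 members by DESeq2 or limma-voom. The mean difference over the settings passed for no member and for 0.0266% of all genes, all of them higher; its smallest member p was that of Ndufc2 (-0.27, adjusted p = 0.146). The count of 4, beside 764 genes in the whole table, was 0 without CrAT12MLFD328 (6 genes) or without CrAT12MLFD337 (2 genes), and 10 without CrAT12MLFD345 (2195 genes). With the GC correction Ndufb7 kept its call, and Ndufs8, Ndufb9 and Ndufv3 did not.

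Some complex I transcripts were lower at 24 months in Pt-CrAT than at 15 months in libraries labelled Pt-CrAT. Of the 36 members, 7 were lower at 24 months and 0 were higher by edgeR's quasi-likelihood test (19.4% of members, against 5.71% of all genes lower and 5.61% higher). They were 4 core subunits (Ndufs3, Ndufv1, Ndufs8 and Ndufs1) and the accessory subunits Ndufc2, Ndufb4 and Ndufa9. Values were lower at 24 months for 30 of 36 members (45.7% of all genes), and the groups did not overlap for 13 members, all lower at 24 months (11.3% of all genes). All 7 core subunits and all 9 accessory subunits of the matrix arm had lower values. Crat itself was lower at 24 months in Pt-CrAT than in the 15-month libraries labelled Pt-CrAT (log2 fold change -0.93, adjusted p = 0.016), so with the 15-month labels in doubt, age and genotype cannot be told apart here. The libraries of the ages may differ in handling, which the labels do not describe.

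Ndufs3 had 35.6, 29.9, 33.0, 21.8 and 35.9 CPM at 24 months and 45.6, 51.2 and 47.1 CPM at 15 months in libraries labelled Pt-CrAT (log2 fold change -0.62, SE 0.19, adjusted p = 0.034). Ndufc2 had 69.6, 87.2, 90.8, 81.7 and 91.2 CPM at 24 months and 110.3, 135.7 and 126 CPM at 15 months (-0.56, SE 0.14, adjusted p = 0.014). Ndufb4, in the distal membrane arm, had 79.8, 103, 117, 96.3 and 109 CPM at 24 months and 129, 157 and 142 CPM at 15 months (-0.49, SE 0.14, adjusted p = 0.023). In each gene every 24-month library lay below every 15-month library. The core subunits Ndufv1 (-0.49, adjusted p = 0.039), Ndufs8 (-0.49, adjusted p = 0.035) and Ndufs1 (-0.37, adjusted p = 0.032) and the accessory Ndufa9 (-0.38, adjusted p = 0.045) completed the 7. Ndufs1 had 111, 143, 137, 116 and 136.3 CPM at 24 months and 153, 180.5 and 163 CPM at 15 months. The count of 7, beside 845 genes higher and 860 lower in the whole table, was 0 without CrAT15Mchow185 (421 genes) or without CrAT15Mchow204 (393 genes). It was 2 without CrAT24Mchow123 (1184 genes) or without CrAT24Mchow136 (1097 genes), where Ndufc2 passed in both. It was 4 without CrAT15Mchow183 (1646 genes), 3 of them among the 7, and 3 without CrAT24Mchow124 (1386 genes). These counts took members called in either direction.

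**Figure D5:**
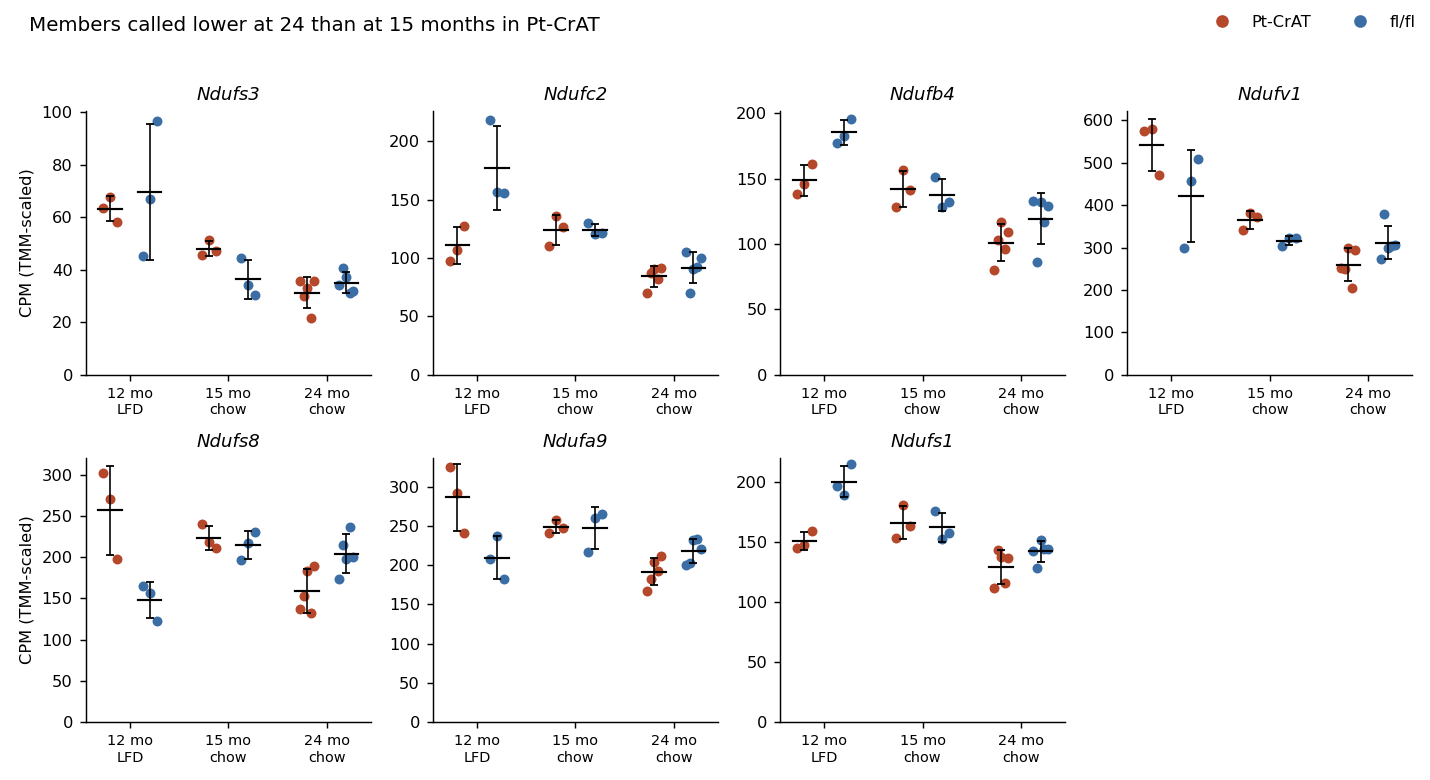
TMM-scaled CPM per library (points) with group mean and SD (bars) by age for the 7 members called lower at 24 than at 15 months in Pt-CrAT, with fl/fl beside them and genotypes at 15 months as labelled. Every Pt-CrAT library at 24 months lies below every library labelled Pt-CrAT at 15 months for these 7, for example 69.6 to 91.2 CPM at 24 months and 110.3 to 135.7 CPM at 15 months for Ndufc2.

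In fl/fl 1 member was lower at 24 months than in the 15-month libraries labelled fl/fl, 2.78%, against 0.478% of all genes, and 0 were higher (0.823% of all genes). The doubt about the 15-month labels bears on this comparison too, since Crat was at 41.5, 34.3 and 60.0 CPM in the 15-month libraries labelled fl/fl (log2 fold change 0.72 at 24 months over 15, adjusted p = 0.115). Ndufa8 had 140.7, 75.2, 108, 113 and 122.98 CPM at 24 months and 158, 164.5 and 209.9 CPM at 15 months in libraries labelled fl/fl, without overlap (log2 fold change -0.66, SE 0.17, adjusted p = 0.046). Its call was lost when any of Wt15Mchow205, Wt15Mchow225, Wt15Mchow227, Wt24Mchow154, Wt24Mchow164 or Wt24Mchow165 was left out and in the fit with limma-voom. The next members by p were Ndufb6 (-0.50, adjusted p = 0.081) and Ndufc2 (-0.43, adjusted p = 0.099), which did not pass. The groups did not overlap for 6 members, these 3 among them, all lower at 24 months (8.26% of all genes). Values were lower at 24 months for 26 of 36 members, against 47.8% of all genes. Whether the age difference itself differs between genotypes is the same test as the change of the genotype difference between 15 and 24 months, which no member passed.

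Other genes of complex I were looked at from lists of assembly factors and mitochondrially encoded subunits. Of 17 assembly factors tested, 0 passed between genotypes at any age and 0 between ages in fl/fl. At 12 months the smallest p belonged to Ecsit (log2 fold change -0.56), Nubpl (-0.69), Ndufaf6 (-0.44) and Tmem186 (0.31), none of which passed. In Pt-CrAT 2 were lower at 24 than at 15 months, Acad9, an assembly factor that is also an acyl-CoA dehydrogenase (-0.86, SE 0.21, adjusted p = 0.012), and Dmac2, a factor of membrane arm assembly (-0.70, SE 0.15, adjusted p = 0.0065). Of 7 mitochondrially encoded subunits, which form the pumping core of the membrane arm, 6 were in the table, all but mt-Nd4l. Of these 6, mt-Nd3 was close to the detection limit, with group means of 1.04 to 3.38 CPM. Among the 6, 0 passed between genotypes at any age. In Pt-CrAT 2 were lower at 24 than at 15 months, mt-Nd5 (-0.64, SE 0.16, adjusted p = 0.012) and mt-Nd2 (-0.54, SE 0.16, adjusted p = 0.031). The summed level of all 6 was 28642 ± 2731 CPM at 24 months and 34247 ± 2522 CPM at 15 months in Pt-CrAT (SD, n = 5 and 3). In fl/fl this sum was 34964 ± 4128 CPM at 24 months and 31276 ± 1480 CPM at 15 months, with the 15-month genotypes as labelled. Of the sum, mt-Nd4, which did not pass, made up 17065 to 21439 CPM in the Pt-CrAT libraries at 24 months. Ndufab1, the acyl carrier protein that is also a complex I subunit but lies outside the name rule, did not pass in any comparison and had 138 ± 10.2 CPM in Pt-CrAT and 161 ± 33.1 CPM in fl/fl at 12 months (SD, n = 3 each).

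The lower values at 24 than at 15 months in Pt-CrAT stood beside differences in tissue markers, with the 15-month genotypes as labelled. Of 10 proximal tubule markers 5 were lower at 24 months, among them Slc5a2, the glucose cotransporter of the early tubule (log2 fold change -1.24, SE 0.18, adjusted p = 0.00074), and Slc34a1, the phosphate cotransporter (-0.79, SE 0.17, adjusted p = 0.0050). The summed level of all 10 markers was 10196 ± 1338 CPM at 24 months and 15183 ± 520 CPM at 15 months in Pt-CrAT. In fl/fl this sum was 11521 ± 546 CPM at 24 months and 14522 ± 713 CPM at 15 months (SD, n = 5 and 3 in both genotypes). Of 6 leukocyte markers 2 were higher at 24 months in Pt-CrAT, Adgre1 and Lyz2. CrAT24Mchow123 and CrAT24Mchow136, with the lowest proximal tubule sums at 24 months (8584 and 8912 CPM), were left out together in a further fit. No complex I member passed between the ages in that fit, in which 417 genes of the whole table passed. The median log2 fold change over members was -0.18 in that fit, with 29 members lower and 7 higher, and -0.19 with all libraries. The count of members called was also 0 without CrAT15Mchow185 alone or without CrAT15Mchow204 alone. The part of the markers in the lower values was not tested.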

How the data were processed

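RNA came from kidney cortex by TRIzol extraction, and libraries were made with the QuantSeq 3' FWD kit, per the labels' protocols. Per the submitters' processing notes, the genome build was GRCm38, and the tools named are DESeq2 1.18.1 and R 3.4.3. Aligner, counter and strand setting were not given, so reads shared with pseudogenes or overlapping neighbours may be split in unknown ways. Whether this bears on the low level of Ndufs5 or the spread of Ndufa1, Ndufa4 and Ndufb3 was not tested. The authors deposited raw counts per gene, which gave every value here, and a size-factor-normalized signal, also deposited by the authors, which served only for gene symbols. A table of totals was left aside.

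The counts of all 22 libraries entered 1 edgeR 4.0.16 model (R 4.3.3), scaled by TMM and filtered with filterByExpr, and were tested with robust quasi-likelihood F tests on 16 residual degrees of freedom. Adjustment for multiple testing was by Benjamini and Hochberg over 15064 genes, at a threshold of 0.05. The biological coefficient of variation was 20.5%. Libraries of the same group differed from each other beyond counting noise (reduced chi-square 9.43 to 123.2 over 32 pairs), so each library counted once. The highest values, 84.1 and 123.2, were those of Wt12MLFD326 paired with Wt12MLFD327 and with Wt12MLFD368. The pair of Wt12MLFD327 and Wt12MLFD368 had 24.1. Counted reads are not independent molecules, so the spread between libraries sets the error. Within-group SDs used log2(CPM + 0.5). Annotation came from GENCODE M21, which held 16514 of the gene identifiers, and promoters from RefSeq (GRCm38.p6). The letters searched for the NRF-1 motif were changed after counts had been seen, and the counts of all 3 spellings are given.

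Members, marker lists and tests were chosen with earlier results of these data known. Genes named are the core subunits, except 1 member that is not reported on its own here, up to 4 members with the largest rise and 4 with the largest fall among those called at 12 months, the 3 with the smallest p in each other comparison, and the exceptions said to be named after their values were seen; other members called are named to complete a count. Alternatives were RLE and upper-quartile scaling, DESeq2 1.42.0, limma-voom (limma 3.58.1), no filter, only the groups compared, thinning of the deepest library, leaving out libraries, and a GC correction. The tests were run on simulated counts with the same spread per gene in every group. That check does not cover groups as uneven as fl/fl at 12 months. Marker lists of the thick ascending limb, distal convoluted tubule, podocytes, endothelium and erythrocytes were summed as well: at 12 months 1 of 4 thick ascending limb markers was lower and none of the other 17 passed. In Pt-CrAT between 15 and 24 months, 1 thick ascending limb, 1 collecting duct and 1 endothelial marker were higher and 2 distal convoluted tubule markers and 1 adipocyte marker were lower at 24 months. No marker of these lists passed between genotypes at 15 or 24 months.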

Additional observations from a re-analysis of the deposited data

Results flagged for a closer look

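Within groups of 5 libraries, 3 of 72 group and gene combinations held a library outlying by Dixon's criterion, which chance gives in about 1 of 20. All 3 were fl/fl libraries at 24 months: Ndufb8 in Wt24Mchow165 at 2520 CPM (others 2124 to 2155 CPM), Ndufs6 in Wt24Mchow154 at 769 CPM (others 524 to 580.1 CPM) and Ndufs5 in Wt24Mchow145 at 1.82 CPM (others 0.544 to 0.829 CPM).

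The genotype difference varied among the 3 settings by edgeR's 2-degree-of-freedom test for Ndufb7 (adjusted p = 0.020), Ndufs8 (adjusted p = 0.020), Ndufb9 (adjusted p = 0.0455) and Ndufv3 (adjusted p = 0.0497), each with a higher value in Pt-CrAT at 12 months and a lower value at 24 months.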

How the results depend on the processing

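No paired analysis was possible because no replicate number is shared between groups. The counts of members that rose (8) and fell (4) at 12 months were both 0 in the fit of the libraries compared alone and both 0 without CrAT12MLFD328 and Wt12MLFD326 together. Leaving out each library in turn gave 0 to 12 that rose and 0 to 7 that fell. With the GC correction, chosen after the data were seen, 5 rose and 3 fell, 1 of them (Ndufc2) among the original 4. All 12 calls were kept with RLE or upper-quartile scaling, DESeq2, limma-voom and thinning of the deepest library, and 11 without the filter on low counts. The count of members that varied among settings (4) was 13 with DESeq2, 3 with the GC correction, of which Ndufb7 was among the original 4, 0 without those 12-month libraries together, 0 without CrAT24Mchow123 and CrAT24Mchow136 together, and 0 to 10 leaving out each library. The count of members called in either direction between the ages in Pt-CrAT (7, all lower) was 4 with upper-quartile scaling. It was 0 without CrAT24Mchow123 and CrAT24Mchow136 together and 0 to 8 leaving out each library. The same count in fl/fl (1, lower) was 3 with DESeq2, 0 with limma-voom and 0 with the groups compared alone. It was 2 without either pair of libraries and 0 to 4 leaving out each library. At 12 months Ndufs3 (-0.14) ranged from -0.38 to 0.18 leaving out each library, with the positive value without Wt12MLFD368; it did not pass, and the cause was not tested. With 3 libraries a group, smaller differences are beyond the reach of these tests.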
